A study of Mus musculus with 4 samples.

Results

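The genes described here are the enzymes and regulators of hepatic de novo lipogenesis. They are 10 genes chosen by name: Srebf1, Mlxipl, Thrsp, Acly, Acss2, Me1, Acaca, Acacb, Fasn and Gpam. Probes were assigned by matching the transcript accession of each probe to RefSeq symbols. This gave 20 probes for the 10 genes, out of 23462 genes with a probe on the arrays. The samples were whole livers of male mice, in 4 groups of 1 array. The first group was natural aging mice with no drug, and the second aging diabetic mice with no drug. The other groups were aging diabetic mice that received either metformin, a common oral glucose-lowering drug, or metformin together with astragalus polysaccharide (APS), a plant polysaccharide. Mice of every group were fasted for 12 hours before the liver was taken. Strain, age, dose, the way diabetes was brought about and whether mice were pooled are not given in the sources used here. The sample titles carry the same label in days for every group, and what it counts is not stated. With 1 array in each group no test across animals was possible, and each difference below is between 2 arrays.

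De novo lipogenesis builds fatty acids from acetyl-CoA in the cytosol. Citrate leaves the mitochondria and is cleaved to acetyl-CoA, the carboxylases turn acetyl-CoA into malonyl-CoA, and fatty acid synthase extends the chain with NADPH as reductant. In liver the enzymes are controlled largely at transcription, by insulin through the SREBP-1 protein encoded by Srebf1 and by glucose through ChREBP encoded by Mlxipl, and the programme is low in the fasted state.

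Each level is the log2 of the spot's processed signal minus the log2 of that array's 75th percentile, so that 0 is the 75th percentile of the array. Of the 59305 spots on an array that were not controls, 33668 to 37402 were well above background, and no spot was saturated. Of the 80 spots of the lipogenic probes over the 4 arrays, 74 were well above background. Of the 80, 11 carried an outlier flag of the image analysis (uneven pixels within the spot); these were kept and are marked where they occur. For genes with several probes, the probe with the highest mean level stood for the gene in counts and medians. The error of a difference joins the image analysis errors of both spots. It was between 0.163 and 0.187 log2 for these chosen probes and covers measurement only. As a background, 5374 genes were well above background on all 4 arrays and at least as bright as the dimmest chosen probe of the 10 genes, and are called genes as bright.

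The windows upstream of annotated starts are shown first, because the 10 genes had their highest level on the same array and their promoters are where SREBP-1 and ChREBP are known to act. RefSeq promoter windows (build GRCm38.p6; 250 bases before to 50 after a start) existed for all 10 genes, 15 windows in all. The search covered both strands. The CCAAT box (CCAAT), a site type of the factor NF-Y, was in 10 of the 15 windows (66.7%), from 9 of the 10 genes, against 37.4% of all 32851 windows. The GC box (GGGCGG), a site type of Sp1, was in 7 windows (46.7%) from 6 genes, against 35.7% of all windows. The E-box (CACGTG) was in 1 window, of Mlxipl, against 7.15% of all windows. The letters TCACCCCAC of the sterol regulatory element were in none of the 15 and in 0.551% of all windows. The strict carbohydrate response element was in 0 of all windows, so it could separate nothing, and the strict LXR element DR4 was in none of the 15 and in 5 of all 32851. Shown are the 250 bases upstream of a start for Srebf1 and Fasn, whose profiles differed from each other, and for Thrsp and Acss2, which encode a cofactor of the pathway and an acetyl-CoA source. They are read 5′ to 3′ on the strand of the gene, with capitals for every match to a CCAAT or GC box on either strand. Acss2 lies on the plus strand and the other genes on the minus strand. The positions are chr11:60210472-60210721 for 1 of the 3 Srebf1 starts, chr11:120824548-120824797 for Fasn, chr7:97417551-97417800 for Thrsp and chr2:155517793-155518042 for Acss2.
Srebf1: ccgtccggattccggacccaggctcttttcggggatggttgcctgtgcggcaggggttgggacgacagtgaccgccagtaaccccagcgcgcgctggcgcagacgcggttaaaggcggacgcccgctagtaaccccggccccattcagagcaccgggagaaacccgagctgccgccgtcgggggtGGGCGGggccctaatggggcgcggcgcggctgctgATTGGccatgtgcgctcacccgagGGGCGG
Fasn: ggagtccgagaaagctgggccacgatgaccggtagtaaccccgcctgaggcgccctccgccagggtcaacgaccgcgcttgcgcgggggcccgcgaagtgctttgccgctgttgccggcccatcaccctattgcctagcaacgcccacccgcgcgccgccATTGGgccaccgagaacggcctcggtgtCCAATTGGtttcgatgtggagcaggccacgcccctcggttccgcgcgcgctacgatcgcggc
Thrsp: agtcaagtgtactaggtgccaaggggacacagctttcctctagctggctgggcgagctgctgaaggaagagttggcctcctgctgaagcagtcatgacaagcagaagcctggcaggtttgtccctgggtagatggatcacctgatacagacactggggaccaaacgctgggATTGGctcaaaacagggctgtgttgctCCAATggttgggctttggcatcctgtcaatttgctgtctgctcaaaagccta
Acss2: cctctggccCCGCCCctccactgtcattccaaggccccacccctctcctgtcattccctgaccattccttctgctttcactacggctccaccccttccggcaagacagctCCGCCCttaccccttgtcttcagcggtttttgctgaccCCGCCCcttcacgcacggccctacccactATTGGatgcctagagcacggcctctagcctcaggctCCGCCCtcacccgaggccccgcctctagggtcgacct
In Fasn a forward and a reverse CCAAT box overlap, starting 62 and 59 bases before the start, and a further box starts 90 bases before it. Thrsp held 2 CCAAT boxes, 79 and 52 bases before the start, and Acss2 held 1, 73 bases before it, among its GC boxes. A match is a description of letters, and the Srebf1 probe does not tell which start was used.

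By their chosen probes all 10 genes had their highest level on the natural aging array, where 50.6% of the genes as bright also had theirs. With quantile normalization, and likewise in the authors' deposited values, 8 of the 10 remained highest there against 22.6% of the genes as bright; Gpam and Acss2 were then highest on the metformin array. The lowest level was on the metformin array for 5 genes (Thrsp, Acly, Me1, Gpam and Mlxipl), on the APS plus metformin array for 3 (Fasn, Acaca and Acacb) and on the aging diabetic array for 2 (Srebf1 and Acss2). Of the genes as bright, 51.8% were lowest on the metformin, 18.9% on the APS plus metformin and 14.8% on the aging diabetic array, so the metformin count is at the background share. With quantile normalization 3 of the 10 were lowest on metformin and 4 on APS plus metformin, against 22.5% and 28.4% of the genes as bright. The distance from lowest to highest array ran from 0.24 log2 for Gpam to 1.29 for Fasn, with a median of 0.92 against 0.49 over the genes as bright.

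**Figure D1:**
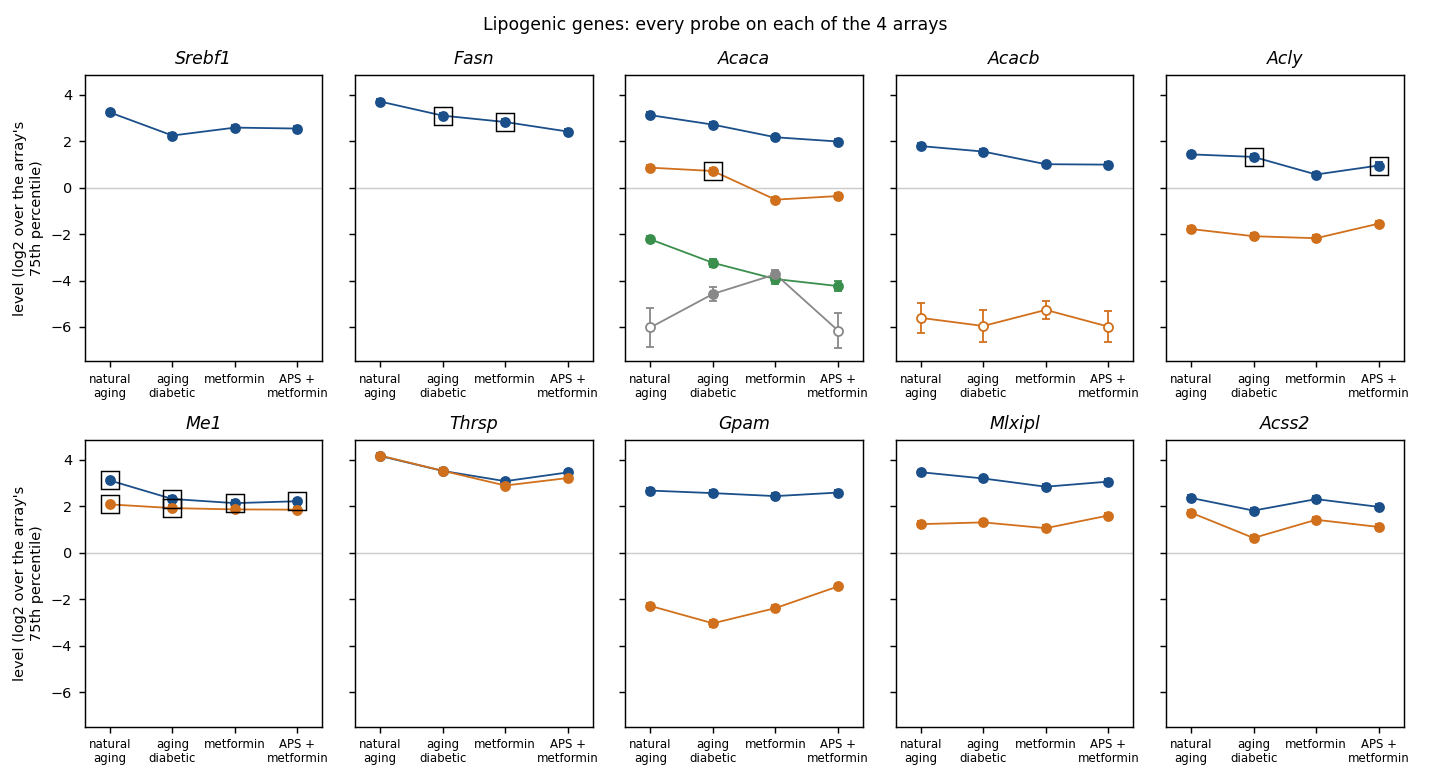
Level of every probe of the 10 genes on each array, in log2 over that array's 75th percentile, 1 array a group; bars are the image analysis error, each colour is 1 probe (blue is the chosen probe), open circles are spots not well above background and squares mark outlier flags. The chosen probes all stand highest on the natural aging array, while Acaca, Acly, Gpam and Mlxipl each have a dimmer probe with a different course.

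Srebf1 encodes SREBP-1, the transcription factor that conveys insulin to the lipogenic genes. Its single probe stood at 3.23 on natural aging, 2.24 on aging diabetic, 2.58 on metformin and 2.54 on APS plus metformin. The aging diabetic array was the low one and both treated arrays lay between it and natural aging. Mlxipl encodes ChREBP, the glucose-responsive factor that acts with Mlx. Its chosen probe stood at 3.47, 3.20, 2.85 and 3.07 in the same order of arrays, and its dimmer probe at 1.24, 1.31, 1.06 and 1.61. Both probes were lowest on the metformin array, but the dimmer probe was highest on the APS plus metformin array instead of on natural aging. Thrsp encodes the Spot 14 protein, a cofactor of hepatic fatty acid synthesis. Its probes gave nearly the same profile, 4.17, 3.53, 3.08 and 3.46 for the chosen probe and 4.19, 3.53, 2.90 and 3.22 for the other. Natural aging was high and metformin low for both.

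Acly encodes ATP citrate lyase, which makes cytosolic acetyl-CoA from citrate. Its chosen probe stood at 1.43, 1.32, 0.56 and 0.95, with outlier flags on the aging diabetic and APS plus metformin arrays, and its dimmer probe, with no flag, at -1.78, -2.09, -2.18 and -1.55. Metformin was the low array for both probes, and the APS plus metformin array was low for the first and high for the second. Against natural aging, the APS plus metformin value of Acly was -0.48 with the chosen probe, -1.09 from the median pixel signal with normexp background correction, and 0.23 when flagged spots were left out and the dimmer probe took over, so no direction is given for it. Acss2 encodes the cytosolic acetyl-CoA synthetase that uses acetate. Its probes stood at 2.36, 1.82, 2.31 and 1.98, and at 1.73, 0.64, 1.42 and 1.12. They gave the same order of arrays, with natural aging first, metformin second and aging diabetic last. Me1 encodes malic enzyme, a source of NADPH. Its probes stood at 3.12, 2.32, 2.14 and 2.22, flagged on all 4 arrays, and at 2.09, 1.93, 1.87 and 1.86, flagged on the natural aging and aging diabetic arrays. Both were highest on natural aging, but the second probe moved by only 0.23 over the 4 arrays.

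Acaca encodes acetyl-CoA carboxylase 1, the cytosolic enzyme that commits acetyl-CoA to fatty acid synthesis. Of its 4 probes the brightest stood at 3.12, 2.71, 2.16 and 1.98, the next at 0.86, 0.71, -0.52 and -0.37 (flagged on aging diabetic), and the third at -2.23, -3.24, -3.94 and -4.24. These 3 probes shared high levels on natural aging and low ones on both treated arrays. The dimmest probe was well above background only on the aging diabetic (-4.58) and metformin (-3.73) arrays, and of these the metformin array was the higher, unlike in the other 3 probes. Acacb encodes the carboxylase at the mitochondrial surface, whose malonyl-CoA restrains fatty acid oxidation. Its usable probe stood at 1.78, 1.55, 1.01 and 0.99, so both treated arrays were low and alike within the error. Its other probe was not well above background on any array. Fasn encodes fatty acid synthase, which carries out the chain synthesis itself. It stood at 3.70, 3.10, 2.82 and 2.41, with outlier flags on the aging diabetic and metformin arrays, and the APS plus metformin array was lowest. Gpam encodes the mitochondrial glycerol-3-phosphate acyltransferase that starts glycerolipid synthesis from new fatty acids. Its chosen probe stayed between 2.44 and 2.68. Its dimmer probe stood at -2.28, -3.03, -2.38 and -1.44 and was high on the APS plus metformin array, where it was 3.01-fold above the aging diabetic array against 1.02-fold for the chosen probe.

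Neighbouring arrays in the order of a gene's chosen probe often lay within the measurement error of each other. This held for every neighbouring pair of Gpam, for metformin and APS plus metformin in Srebf1 and Acacb, and for aging diabetic and APS plus metformin in Thrsp, Mlxipl and Me1. It also held for natural aging and aging diabetic in Acly, for natural aging and metformin in Acss2, for APS plus metformin and aging diabetic in Acss2, and for both treated arrays in Me1. In Fasn and Acaca each array differed from the next by more than the error.

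In the aging diabetic liver all 10 genes were below natural aging by their chosen probes, as were 66.4% of the genes as bright and 53.8% of all genes compared. None differed by 2-fold or more. The comparison bears on how diabetes on top of aging went with the lipogenic programme. Srebf1 differed most, at 1.99-fold lower (-0.995 ± 0.163 log2, measurement error), followed by Me1 at 1.74-fold lower (flagged on both arrays), Thrsp at 1.56-fold, Fasn at 1.52-fold and Acss2 at 1.46-fold lower. The second Me1 probe was 1.12-fold lower, within its error, and the mean of both Me1 probes differed by -0.48. With quantile normalization Thrsp and Fasn differed by -0.32 and -0.33. Acaca was 1.33-fold lower, and the chosen probes of Acly and Gpam differed from natural aging by less than the measurement error. Their dimmer probes were lower by more than it, at -0.31 for Acly and -0.75 for Gpam. With normexp, Acly differed by -0.65. By the chosen probes 8 of 10 lay below natural aging by more than the measurement error, among them Mlxipl at -0.27. None of 10 was at least 2-fold lower (Srebf1 was just past it, at -1.02, with the array percentile taken over probes in place of spots), against 6.03% of the 16005 genes compared, and none at least 2-fold higher against 8.03%. The shares for the genes as bright were 1.86% lower and 1.43% higher. The median of the 10 genes was -0.48, against -0.05 over all genes compared and -0.14 over the genes as bright. With quantile normalization the median of the 10 was -0.26 (0.03 for the genes as bright). Then 9 of 10 stayed below 0, with Gpam at 0.05, against 44.1% of the genes as bright. Among the 9, Mlxipl differed by only -0.003 and Acly by -0.07, both within the measurement error. Mlxipl differed by -0.002 in the authors' deposited values and by -0.08 with cyclic loess. Without quantile normalization its dimmer probe differed by 0.08, also within the error. The lower Mlxipl level thus depended on the processing and the probe. The dimmer probe of Acss2 was 2.13-fold lower and the third probe of Acaca 2.01-fold lower, both past the 2-fold mark that their chosen probes did not reach.

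The summed level of 8 hepatocyte markers, in units of the 75th percentile, was 164 on natural aging, 128 on aging diabetic, 104 on metformin and 138 on APS plus metformin, with all 8 detected throughout. In whole liver, fewer cells of a type and less RNA per cell cannot be told apart. Adipocyte markers, chosen because fat tissue is rich in these enzymes, summed to between 13.6 and 17.6, highest on natural aging. The brightest, Fabp4 (3.62 on natural aging), makes up most of that sum. Singly, Fabp4 and Lep were highest on natural aging, Cfd and Retn on metformin, Cidec and Lipe on aging diabetic and Adipoq on APS plus metformin. Of the 8, 7 were well above background on every array and Plin1, which coats the adipocyte fat droplet, on none. Pancreatic acinar markers summed to 63.5 on natural aging against 3.36, 13.6 and 0.299 on the other arrays in the order above. All 8 were detected on the first 3 arrays and 3 of 8 on APS plus metformin, where Cpa1, Cpb1, Prss2, Cel and Try4 were not well above background. Macrophage markers summed to 32.1, 23.0, 23.7 and 16.1, and the other lists (T and NK cell, endothelial, stellate and cholangiocyte) were each lowest on the aging diabetic array. From aging diabetic to metformin the sums were 0.481 and 3.46 for T and NK cell, 10.2 and 21.3 for stellate, 4.90 and 10.2 for cholangiocyte and 16.6 and 20.0 for endothelial markers. The part of these markers in the lipogenic differences was not tested.

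**Figure D2:**
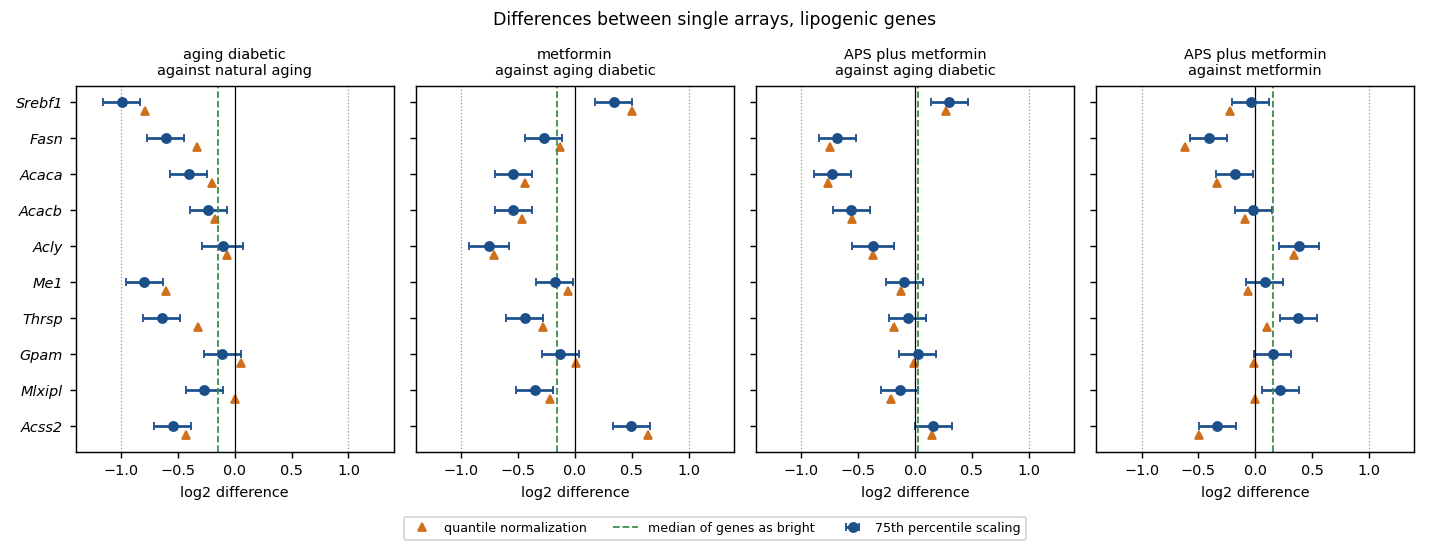
Log2 difference of each of the 10 genes between 2 arrays, in 4 comparisons; blue points with bars are the 75th percentile scaling with the image analysis error, triangles the same arrays after quantile normalization, the dashed line the median of the 5374 genes as bright and the dotted lines 2-fold. In aging diabetic against natural aging all blue points lie below 0, and in the metformin panel the blue points of Srebf1 and Acss2 alone lie above 0.

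In metformin-treated diabetic liver Acss2 and Srebf1 stood higher than in untreated diabetic liver, and the other 8 genes stood lower. Of the genes as bright 72.6% were also lower, so the count of lower genes is close to the background share. The comparison bears on what metformin alone went with. Acss2 was 1.41-fold higher (0.49 ± 0.163) and Srebf1 1.27-fold higher (0.34 ± 0.163); the dimmer Acss2 probe was 1.72-fold higher. Acly was 1.69-fold lower by its chosen, flagged probe and differed by -0.09 by the other. Acaca and Acacb were each 1.46-fold lower, Thrsp was 1.36-fold, Mlxipl 1.28-fold and Fasn 1.21-fold lower. Neither direction reached 2-fold for any of the 10. Of the 17110 genes compared, 11.5% were past 2-fold on the higher side and 3.39% on the lower side, and of the genes as bright 1.14% and 1.10%. The median of the 10 was -0.31, against -0.02 over all genes and -0.15 over the genes as bright. With quantile normalization it was -0.17 and 7 of 10 were below 0, against 51.5% of the genes as bright. By single probes, the second Acaca probe was 2.35-fold lower, while the dimmest Acaca probe was 1.80-fold higher (error 0.341 log2).

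Under APS plus metformin, the enzymes that make and use malonyl-CoA stood below the untreated diabetic array and Srebf1 above it. The comparison bears on what the combination went with. Acaca was 1.66-fold lower (-0.73 ± 0.163), Fasn 1.61-fold lower (-0.69 ± 0.163) and Acacb 1.48-fold lower, while Acly turned with the probe, 1.29-fold lower by the flagged one and 1.46-fold higher by the unflagged one (0.09 log2 over their mean). Srebf1 was 1.23-fold higher (0.30 ± 0.163). By their chosen probes Me1, Thrsp, Gpam, Mlxipl and Acss2 differed by less than the measurement error, between -0.14 for Mlxipl and 0.16 for Acss2. Their dimmer probes differed by more than it in Thrsp (-0.31), Mlxipl (0.30), Acss2 (0.47) and Gpam (1.59), and by less in Me1 (-0.07). None of the 10 was past 2-fold, against 4.41% of 16269 genes higher and 6.76% lower. The median of the 10 was -0.12, against 0.02 over all genes and 0.03 over the genes as bright, and -0.20 with quantile normalization. The direction for Fasn, Acaca, Acacb and Srebf1 was the same under the 9 alternatives run. Fasn has no value once its flagged spots are left out, and so 8 alternatives. Not every alternative could change a value. Keeping genes detected on all 4 arrays returned the same value for each of them. The mean over probes did so for Srebf1, Fasn and Acacb, and leaving out flagged spots for Srebf1, Acaca and Acacb.

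Set against metformin alone, APS plus metformin showed Fasn, Acss2 and Acaca lower by more than the measurement error, by their chosen probes. Acly, Thrsp and Mlxipl were higher by more than it. The comparison bears on what APS added. Fasn was 1.33-fold lower (-0.41 ± 0.163) and Acss2 1.26-fold lower, and its dimmer probe 1.24-fold lower. Acly was 1.31-fold and Thrsp 1.30-fold higher, with the second Thrsp probe 1.25-fold higher. Both depended on the processing: Thrsp differed by 0.10 with quantile normalization, 0.15 with cyclic loess and 0.10 in the authors' deposited values, all within the measurement error, and Acly by 0.05 with normexp. Srebf1 differed by -0.04 and Acacb by -0.02, both within the error. Srebf1 was past the error at -0.22 with quantile normalization and in the authors' deposited values, and at -0.24 with cyclic loess. Mlxipl differed by 0.22 with its chosen probe, by 0 after quantile normalization and by 0.55 with its dimmer probe. None of the 10 passed 2-fold, against 2.41% of 17135 genes higher and 12.0% lower. For the genes as bright these shares were 0.84% and 1.25%. The median of the 10 was 0.03, with 0.16 over the genes as bright and -0.01 over all genes. With quantile normalization it was -0.08, and 7 of 10 were below 0 and 2 above. Of the genes as bright 54.9% were then below 0.

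Both treated arrays were also set against natural aging; these comparisons share arrays with those above, so their values are given side by side and are not independent. Against natural aging, Thrsp was at least 2-fold lower on the metformin array (2.13-fold, -1.09 ± 0.163), and Fasn and Acaca were on the APS plus metformin array (2.45-fold and 2.19-fold). That is 1 of 10 for metformin, against 17.4% of 17090 genes past 2-fold either way and 4.69% at least 2-fold lower, and 2 of 10 against 6.57% of 16173 for APS plus metformin. Among the genes as bright these shares were 2.79% and 2.49%. No gene of the 10 was at least 2-fold higher, against 12.7% and 6.19% of the genes compared. By the chosen probes all 10 values lay below 0 on both arrays, including Acly on APS plus metformin, whose sign turned with the probe. Of the genes as bright 75.4% lay below 0 on metformin and 65.7% on APS plus metformin. The medians of the 10 were -0.82 and -0.70 against -0.28 and -0.13 for the genes as bright. After quantile normalization the medians were -0.53 and -0.51 and the genes below 0 numbered 8 and 9, against 44.5% and 49.3% of the genes as bright. Then only Fasn on the APS plus metformin array stayed past 2-fold, at -1.09, and Thrsp on the metformin array stood at -0.61. Me1 differed by -0.98 under metformin and -0.89 under the combination by its flagged probe (-0.22 and -0.23 by the other), Srebf1 by -0.65 and -0.69, and Acacb by -0.78 and -0.80.

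**Figure D3:**
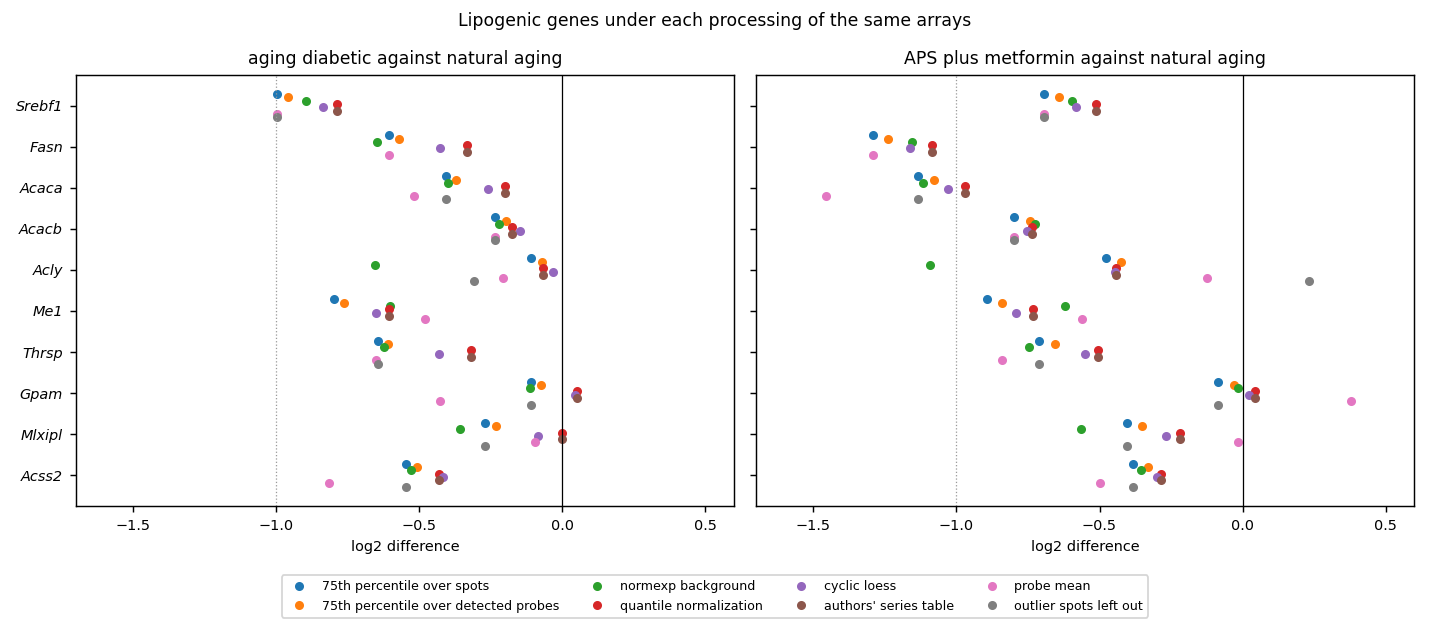
Log2 difference of the 10 genes under 8 ways of processing the same arrays, for aging diabetic (left) and APS plus metformin (right) against natural aging; each colour is 1 way, the dotted line is 2-fold lower, and Fasn and Me1 have fewer points because their flagged spots leave no value. On the left Srebf1 stays between -0.995 and -0.79 in the ways shown (-1.02 with the percentile over probes, which is not drawn). Acly on the right runs from -1.09 to 0.23.

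Among 72 other genes of these 10 and the related lists, all well above background on the 4 arrays, the profiles most like that of Fasn were those of Acaca (distance 0.22 log2 between profiles centred on each gene's mean, over 4 arrays), Acacb (0.40) and Agpat2 (0.41), an acyltransferase of glycerolipid synthesis. Nearest to Srebf1 were Aacs (0.20), which activates acetoacetate, the desaturase gene Fads1 (0.33) and Tkt (0.34), which encodes transketolase. These are descriptions over 4 arrays.

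Genes around the pathway were taken from 5 lists. In the list of NADPH, citrate and pyruvate supply, 13 of 14 genes were lower on aging diabetic than on natural aging, 2 of them at least 2-fold, among them Pklr, the liver pyruvate kinase and a known ChREBP target (2.37-fold). Of all genes compared 53.8% were lower and 6.03% at least 2-fold lower. The list's median was -0.38, against -0.05 over all genes. Pklr stood at 0.69 on natural aging, -0.56 on aging diabetic, -0.55 on metformin and -2.00 on APS plus metformin. On the APS plus metformin array it was 2.71-fold lower than on aging diabetic, while metformin alone differed from aging diabetic by 0.01. The citrate carrier gene Slc25a1 was -0.60 on aging diabetic relative to natural aging, and 0.42 on metformin and -0.10 on the combination relative to aging diabetic.

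In the desaturation and elongation list, 10 of 11 genes were lower on aging diabetic than on natural aging. The shares were the same 53.8% of all genes and 66.4% of the genes as bright. The list's median was -0.44, and -0.37 with quantile normalization. Elovl3, an elongase of very long chains, was 9.15-fold lower. In this list APS plus metformin differed most from aging diabetic in Scd1, the stearoyl-CoA desaturase that acts on the products of Fasn, at 10.7-fold lower. Scd1 stood at 4.28, 3.48, 3.30 and 0.06 by a single probe that was flagged on all 4 arrays. Elovl6, which lengthens palmitate, was 3.15-fold lower than aging diabetic under APS plus metformin and 2.19-fold lower under metformin, and had no flag. In metformin against aging diabetic 3 of the 11 were instead at least 2-fold higher, against 11.5% of all genes: Elovl7 (5.35-fold), Scd2 (3.34-fold) and Elovl3 (2.02-fold). In the list for glycerolipid synthesis the largest difference was in Mogat1, a monoacylglycerol acyltransferase, which was 10.9-fold higher on aging diabetic, 26.2-fold higher on metformin and 9.96-fold higher on APS plus metformin than on natural aging. Lpin3 was 2.15-fold higher on aging diabetic than on natural aging (0.39 log2 over its probes). In the same list Pnpla3, a lipid droplet protein induced by SREBP-1, was 5.90-fold lower under APS plus metformin than on aging diabetic. Lpin1, a phosphatidate phosphatase, was 3.36-fold higher in that comparison and 2.67-fold lower on aging diabetic than on natural aging (-0.92 log2 with flagged spots left out). Fasn, Acaca and Acacb on the same APS plus metformin array were 1.48-fold to 1.66-fold lower than aging diabetic, a smaller distance than for Scd1, Pnpla3 and Elovl6.

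Among 15 regulators of SREBP-1 and ChREBP, none was past 2-fold on aging diabetic against natural aging, with a median of -0.03. Against aging diabetic, 1 of 15 was at least 2-fold higher on the metformin array and 3 were higher and 1 lower on the APS plus metformin array. The shares over all genes were 11.5% higher for metformin, and 4.41% higher and 6.76% lower for APS plus metformin, so 1 of 15 is near or below the background. Srebf2, which encodes the SREBP of cholesterol synthesis, was 2.04-fold higher on metformin (0.98 log2 with quantile normalization) and 2.05-fold higher on APS plus metformin. Insig1, which retains SREBP in the endoplasmic reticulum, was 2.37-fold higher under APS plus metformin and differed by 0.94 under metformin, where its spot was flagged, and Ppargc1b, a coactivator of SREBP, was 3.44-fold higher under APS plus metformin. Nfya, a subunit of the factor that binds the CCAAT box, was 4.05-fold lower there by a single probe. Nr1h3, encoding the LXR-alpha receptor that induces Srebf1, differed by -0.16 between aging diabetic and natural aging, and by -0.13 on metformin and -0.31 on the combination relative to aging diabetic. For Mlx, the partner of ChREBP, these differences were -0.69, -0.29 and 0.55, and for Srebf1 itself -0.995, 0.34 and 0.30.

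**Figure D4:**
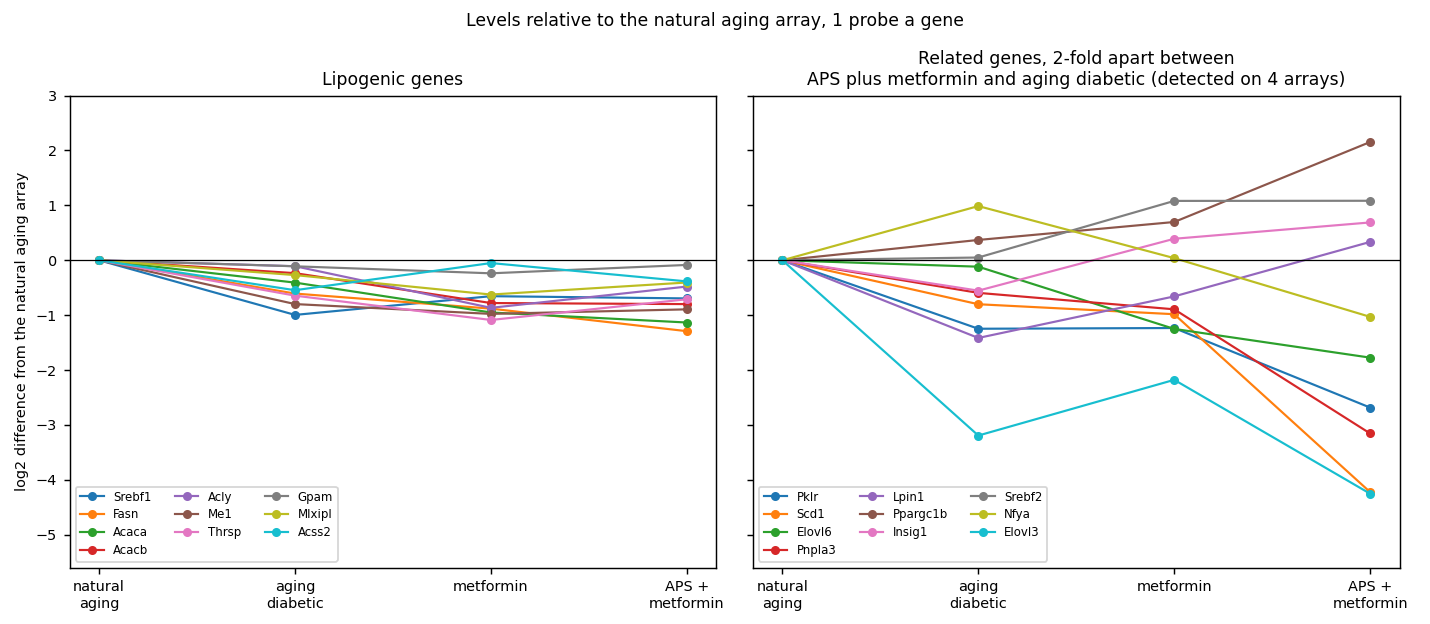
Log2 level relative to the natural aging array, 1 probe a gene and 1 array a group, for the 10 lipogenic genes (left) and for 10 genes of the related lists that were detected on all 4 arrays and at least 2-fold apart between APS plus metformin and aging diabetic (right); lines join the arrays of a gene. The lipogenic genes stay between 0 and -1.29, while Elovl3, Scd1, Pnpla3 and Pklr reach between -4.25 and -2.68 on the APS plus metformin array.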

How the data were processed

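Liver RNA of 4 groups was hybridized to 1 array each; the arrays share 1 slide, 1 scan and the Cy5 channel, per the file headers. As deposited, each spot's intensity is already background-subtracted and detrended by Agilent Feature Extraction (version 11.5.1.1 per the file headers, 10.7 per the submitters' processing notes), with flags as deposited. The deposited series table holds log2 values that the authors normalized between arrays by a method not given in the sources used here. Its log2 scale was read from its correlation with the log2 signal of each array, 0.999 on the least similar. Its differences for the lipogenic genes nearly repeat those of quantile normalization, so it is not a separate check on them.

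With Python 3.11.15, numpy 2.4.6 and pandas 2.3.3, the log2 processed signal minus each array's 75th percentile was taken, and spots of a repeated probe were averaged. Transcript accessions gave 33767 of 56605 probes a RefSeq symbol and 22838 none. A gene was compared where at least 1 array was well above background. Where only 1 was, the difference was a bound against the lowest signal well above background or the probe's own, whichever was higher. Genes past 2-fold (log2 1) were counted. No test was run. Outlier-flagged spots were kept. Named were all 10 genes with every probe, and from each related list genes at least 2-fold apart (up to 3 with the largest difference per comparison); others named from the lists (Slc25a1, Srebf2 under APS plus metformin, Nr1h3, Mlx and the AMPK genes) were chosen after their values were seen. One gene of the related lists is not reported here. Members and lists were chosen with earlier results of these data known. The files give median, not mean, spot signals, so normexp (limma 3.58.1, R 4.3.3, offset 50) used medians. The counting procedure was tested on simulated data.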

Additional observations from a re-analysis of the deposited data

How the results depend on the processing

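No paired analysis was possible because each group holds 1 array; for the same reason no array could be left out, and no setting says how animals vary. Besides the 75th percentile over spots, the same arrays were run with quantile normalization, cyclic loess, the 75th percentile over detected probes, normexp, outlier spots left out, the authors' series table, the mean over probes, genes detected on all 4 arrays, a 1.5-fold threshold and, chosen after seeing the data, the 75th percentile over probes. Of 528 values of single lipogenic genes, 422 moved by less than the measurement error and 36 had another sign. No value past 2-fold changed sign. The 422 include values that could not move, among them all 60 of the setting with genes detected on all 4 arrays. With quantile normalization 35 of 60 moved by less than the error, and with cyclic loess 37 of 60. The authors' series table, with values close to the quantile ones, also kept 35 of 60.

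The median in aging diabetic against natural aging was -0.26 with quantile normalization and -0.26 in the series table. In metformin against natural aging it was -0.53 with quantile normalization, -0.56 with cyclic loess, -0.53 in the series table, -0.64 without outlier spots (8 genes) and -0.64 over probe means. In APS plus metformin against natural aging it was -0.51 with quantile normalization and in the series table, and in APS plus metformin against metformin it was -0.14 with cyclic loess.

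With the 75th percentile over probes, the count past 2-fold was 1 in aging diabetic against natural aging (Srebf1) and 2 in metformin against natural aging. The latter count was 0 with quantile normalization, cyclic loess, detected probes and the series table, and 2 with normexp. In APS plus metformin against natural aging it was 1 with quantile normalization, in the series table and without outlier spots. At 1.5-fold the counts relative to natural aging were 4 for aging diabetic, 8 for metformin and 6 for APS plus metformin, and relative to aging diabetic they were 1 for metformin and 2 for APS plus metformin. Of the genes as bright, 12.2%, 20.3% and 13.1% passed 1.5-fold relative to natural aging, and 8.67% and 10.8% relative to aging diabetic. Beyond settings that leave out spots or genes or change the threshold, the cause was not tested. Dim probes limit what Acacb and the dimmest Acaca probe can show.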

Other observations

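Among genes that act on the acetyl-CoA carboxylases and on malonyl-CoA, Mid1ip1 and Trib3 stood higher on aging diabetic than on natural aging. Mid1ip1, whose product is a relative of the Thrsp protein and promotes polymerization of acetyl-CoA carboxylase, stood at -0.79 on natural aging, 1.39 on aging diabetic, 0.65 on metformin and 0.94 on APS plus metformin. It was 4.54-fold higher on aging diabetic than on natural aging, where Thrsp was 1.56-fold lower. Trib3, a pseudokinase linked to degradation of acetyl-CoA carboxylase in fat tissue, was 4.10-fold higher on aging diabetic and 6.73-fold and 6.72-fold higher on the metformin and APS plus metformin arrays than on natural aging. Of the 12 genes of this list that were compared, 2 were at least 2-fold higher and none lower on aging diabetic against natural aging, with a median of 0.12. Over all genes 8.03% were higher and 6.03% lower at that size. Prkaa2 (-0.66), Prkab2 (-0.47) and Acss1 (-0.94) were lower there. In metformin against natural aging 5 of the 12 were at least 2-fold higher, against 12.7% of all genes: Trib3, Acss3, Mid1ip1, Prkab2 and Acss1. The Acss3 value is a bound, as no Acss3 probe was well above background on natural aging.

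AMPK phosphorylates and restrains both carboxylases. Of its subunit genes, Prkab2 was 3.27-fold higher on metformin than on aging diabetic, while Prkaa1 differed by 0.68, Prkaa2 by 0.07, Prkab1 by -0.16, Prkag1 by -0.29 and Prkag2 by -0.51. The related mitochondrial genes Acss1 and Acss3 were 3.98-fold and 3.48-fold higher on metformin than on aging diabetic, where the cytosolic Acss2 was 1.41-fold higher. The dimmer Acss3 probe went the other way, at -0.75 log2, and the mean over its probes was 0.52.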
